A study of Mus musculus with 12 samples.

Results

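Oxidative phosphorylation was examined through the genes of its 5 enzyme complexes in mouse brain endothelial cells (BECs). Members were taken by symbol: the protein-coding genes of mitochondrial DNA (mt-Nd, mt-Co, mt-Cytb and mt-Atp) and the nuclear genes that begin with Nduf, Uqcr, Cox4 to Cox8 or Atp5, together with Sdha, Sdhb, Sdhc and Sdhd, and symbols marked as pseudogenes were left out. The rule uses names only and no measured value. It took 110 of the 32419 genes in the deposited tables, 13 of them mitochondrial and 97 nuclear. Complex I accounted for 7 mt- and 48 nuclear genes, complex II for 0 and 4, complex III for 1 and 8, complex IV for 3 and 20, and complex V for 2 and 17. Of the nuclear genes, 9 are assembly factors rather than subunits. Each table listed 109 members and both listed 108, since Cox8b had a row under NX/NG only and Cox8c under OGD-R only.

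RNA came from primary cultures of BECs from Cort+/+ (wild type) and Cort-/- mice, both C57BL/6 and 8 weeks old, and each replicate was a pool from 3 mice. Cort encodes cortistatin, a neuropeptide related to somatostatin, and Cort-/- is a whole-body deletion. Cells were kept for 24 h at 21% O2 with 5.5 mM glucose (NX/NG, "NM" in the labels), or deprived for 4 h at 1% O2 without glucose or serum and then reoxygenated for 20 h (OGD-R, "OGD" in the labels). Both genotypes were enriched for endothelium with puromycin. The labels give a model of middle cerebral artery occlusion as the disease state, although the samples are cell cultures. Of 12 samples listed, 10 had a column in the tables, namely 3 of Cort+/+ and 2 of Cort-/- under each condition, with Cort-/- numbered 1 and 2 under NX/NG and 1 and 3 under OGD-R. The other 2 samples were not analysed here. RNA after OGD-R was therefore sampled once, at the end of reoxygenation, and not during deprivation.

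The respiratory chain moves electrons from NADH through complex I (NADH dehydrogenase) and from succinate through complex II (succinate dehydrogenase) to ubiquinone, on to complex III (cytochrome bc1) and by cytochrome c to complex IV (cytochrome c oxidase), which reduces oxygen. Complex V (ATP synthase) uses the proton gradient so formed. Mitochondrial DNA encodes core subunits of complexes I, III, IV and V, copied as long transcripts of either strand that are cut into single RNAs, while complex II and the remaining subunits are nuclear and imported. Cultured endothelial cells draw much of their ATP from glycolysis, and the chain is the step at which deprivation of oxygen acts directly.

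Reads assigned to genes, recovered from the RPKM values, numbered between 12386048 and 12390428 per library. In 8 libraries 18S ribosomal RNA (Rn18s-rs5) took 7.64% to 15.8% of them, but it took 0.0951% in replicate 3 of Cort-/- OGD-R and 0.0775% in the first Cort+/+ OGD-R replicate. These 2 libraries are called rRNA-poor below, and counts, medians and the differences that moved most without them are given with and without them. The endothelial markers Cldn5, Pecam1, Tjp1, Cdh5 and Flt1 summed to between 767 and 1216 RPKM (reads per kilobase of gene length, scaled for the size of the library). The smooth muscle markers Acta2, Myh11 and Tagln summed to between 988 and 1760 RPKM, almost all of it Acta2 and Tagln, while Myh11 did not pass 2.11 RPKM. Markers of astrocytes, neurons, oligodendrocytes and microglia each summed to under 0.96 RPKM in every library. Cort itself had 0 reads in the 4 Cort-/- libraries, 2, 1 and 1 reads in Cort+/+ NX/NG and 0, 0 and 1 in Cort+/+ OGD-R, too few to check the genotype labels. In cultures of this kind fewer cells of a type and less RNA per cell cannot be told apart.

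The 13 mt- mRNAs formed a high and a low group that did not follow the complexes. Levels in Cort+/+ NX/NG (mean ± SD, n = 3) were 4255 ± 310.7 RPKM for mt-Co1, the catalytic subunit of complex IV, 2037 ± 13.9 for mt-Cytb of complex III and 1751 ± 90.5 for mt-Nd1 of complex I. Next came the complex I subunits mt-Nd6 at 907.9 ± 126.8 RPKM, mt-Nd2 at 870.4 ± 91.5, mt-Nd5 at 845.4 ± 82.5 and mt-Nd4 at 654.4 ± 42.3. The SDs of mt-Nd6, mt-Nd2 and mt-Nd5 overlapped, so their order is not set by these data. After a wide gap came mt-Nd3 at 12.8 ± 2.82 RPKM, mt-Co3 at 2.91 ± 0.92, mt-Nd4l at 1.80 ± 0.827, mt-Atp8 at 1.47 ± 0.663, mt-Co2 at 1.23 ± 0.969 and mt-Atp6 at 0.822 ± 0.383. mt-Co2 and mt-Co3, the other mt- subunits of complex IV, were thus listed at far under the level of mt-Co1, and both mt- subunits of ATP synthase stood below it as well. In reads, mt-Co3 had 16 to 35 per library, mt-Co2 1 to 26, mt-Atp6 1 to 14, mt-Nd4l 1 to 11 and mt-Atp8 0 to 7.

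**Figure D1:**
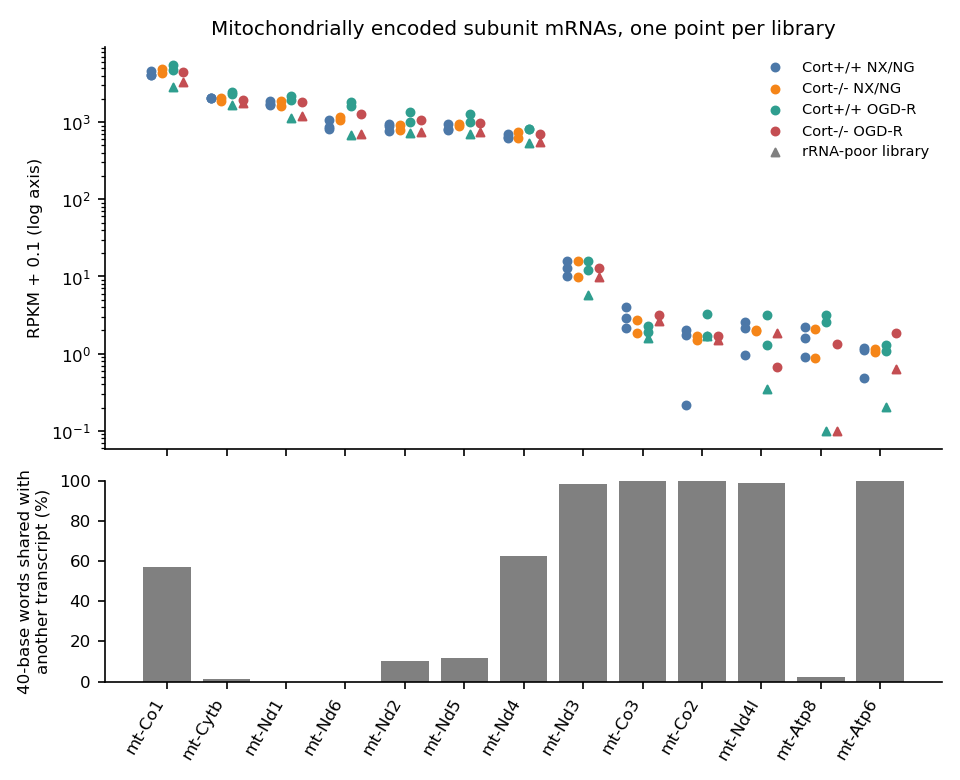
Top, RPKM + 0.1 of each mt- mRNA in the 10 libraries on a log axis, one point per library, coloured by group. Bottom, the percentage of the 40-base words of each gene that also occur in exons of another annotated gene: mt-Co2, mt-Co3, mt-Atp6, mt-Nd4l and mt-Nd3 lie at 98.1% or above and in the low group, and mt-Nd1 and mt-Nd6 lie at 0%.

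The low group coincided with mt- genes that have a near-identical nuclear copy. Every word of 40 bases (the read length given in the labels) in each mt- gene was looked up in the exons of all other genes of GENCODE vM21 on GRCm38. The words shared were 100% for mt-Co2, 99.9% for mt-Co3, 99.5% for mt-Atp6, 98.8% for mt-Nd4l and 98.1% for mt-Nd3, against 0% for mt-Nd1 and mt-Nd6, 1.36% for mt-Cytb, 10.1% for mt-Nd2 and 12.0% for mt-Nd5. mt-Nd4 at 62.5% and mt-Co1 at 57.0% shared part of their length and were in the high group. mt-Atp8 did not follow this division among annotated exons, with 2.42% of its words shared and a low level. It is 204 bases long and shares 43 bases with the start of mt-Atp6. A copy without annotation could not be found by this search. How reads that match more than one place were counted is not given in the sources used here, so the levels of these genes, and differences in them, are uncertain.

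A stretch of chromosome 1 (GRCm38 chr1:24611535-24616197) carries 6 annotated pseudogenes in the order of the mitochondrial genome. Gm28661 matched 681 of 681 aligned bases of mt-Co2, Gm28437 matched 783 of 783 of mt-Co3, Gm10925 matched 678 of 678 of mt-Atp6, Gm28439 matched 876 of 876 of mt-Nd4, Gm28438 matched 344 of 345 of mt-Nd3, and Gm29216 matched 486 of 492 of mt-Co1. A gap of 233 bases without annotation lies between Gm10925 and Gm28661, where mt-Atp8 stands in the mitochondrial genome. The sequence of this gap was not searched. The copies were themselves listed at 0 to 6.56 RPKM, Gm29216 being the highest at 2.65 to 6.56 RPKM. The first 60 bases of mt-Co3 and of its copy, of mt-Nd3 and of its copy, and the 60 bases of mt-Co1 that align to the start of Gm29216, are shown because they give how few bases could tell a pair apart; capitals mark the bases that differ, and mt-Nd1 is shown as a gene with no shared word.
mt-Co3, chrM:8607-8666 (+): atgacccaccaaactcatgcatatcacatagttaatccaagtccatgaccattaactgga
Gm28437, chr1:24613912-24613971 (-): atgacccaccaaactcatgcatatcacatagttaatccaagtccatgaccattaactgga
mt-Nd3, chrM:9459-9518 (+): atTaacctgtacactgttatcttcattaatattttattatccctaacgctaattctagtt
Gm28438, chr1:24613060-24613119 (-): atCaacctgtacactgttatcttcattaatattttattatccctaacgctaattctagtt
mt-Co1, chrM:6381-6440 (+): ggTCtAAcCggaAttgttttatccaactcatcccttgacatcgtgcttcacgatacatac
Gm29216, chr1:24616138-24616197 (-): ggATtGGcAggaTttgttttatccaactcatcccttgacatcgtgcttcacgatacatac
mt-Nd1, chrM:2751-2810 (+): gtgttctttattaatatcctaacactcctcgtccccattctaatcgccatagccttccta

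Among libraries the 7 abundant mt- mRNAs kept their general order but not their level. mt-Co1 was 4089, 4062 and 4613 RPKM in the Cort+/+ NX/NG replicates, 4360 and 4860 in Cort-/- NX/NG, 2870, 4745 and 5434 in Cort+/+ OGD-R and 4463 and 3289 in Cort-/- OGD-R. The lowest values of all came from the 2 rRNA-poor libraries. mt-Nd1 repeated this, with 1854, 1685 and 1713 RPKM in Cort+/+ NX/NG, 1615 and 1870 in Cort-/- NX/NG, 1115, 1954 and 2184 in Cort+/+ OGD-R and 1845 and 1211 in Cort-/- OGD-R. mt-Nd6, the only mRNA read from the light strand, was 870.6, 804 and 1049 RPKM in Cort+/+ NX/NG, 1050 and 1163 in Cort-/- NX/NG, 676.3, 1627 and 1800 in Cort+/+ OGD-R and 1257 and 702.4 in Cort-/- OGD-R. In Cort+/+ OGD-R the replicates other than the rRNA-poor one were thus above every NX/NG library for mt-Nd6, and the rRNA-poor one was below all of them.

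The nuclear members spanned a wide range, and 87 of 97 had a mean of at least 1 RPKM over all libraries, 70 of them at least 10 RPKM. By complex, the median of these genes in Cort+/+ NX/NG was 16.2 RPKM for complex I, 38.7 for complex II, 47.3 for complex III, 48.2 for complex IV and 33.0 for complex V. Atp5b, the catalytic beta subunit of ATP synthase, was the highest of all at 166.4 ± 3.3 RPKM (SD, n = 3), and Cox8a, a small membrane subunit of complex IV, was 140.2 ± 5.68. In complex I the range ran from the assembly factor Ndufaf6 at 2.03 ± 0.756 RPKM to Ndufa8 at 59.5 ± 0.454. In complex II, Sdhc was lowest at 21.05 ± 0.96 and Sdhd highest at 49.8 ± 1.47, the level of Sdha at 49.8 ± 1.02, the flavoprotein subunit. In complex III the core protein Uqcrc1 was lowest at 23.4 ± 1.02 RPKM and Uqcr10 highest at 63.2 ± 4.63. The lowest members above 1 RPKM were Cox6b2 at 3.26 ± 0.362 in complex IV and Atp5l at 2.71 ± 0.0634 in complex V.

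Several of these levels depend on the gene length used. The length in the tables equals the union of all exons of the gene in GENCODE vM21 for 107 of the 110 members, and for some members that union is much longer than the usual mRNA. Atp5l, Ndufs1 and Ndufb5 had lengths 11.8, 12.4 and 7.99 times the median of their coding transcripts, while those of Cox6a2 and the 13 mt- genes equalled it. A low RPKM of a gene such as Atp5l therefore does not show few molecules, and levels are compared between genes on this length-scaled RPKM only. Comparisons of 1 gene between libraries are not affected.

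Complex IV has isoforms that differ by tissue, and the ubiquitous forms made up nearly all of the RNA. Cox4i1 was 109.6 RPKM in Cort+/+ NX/NG against 0.136 for Cox4i2, the isoform known to be raised by low oxygen. Cox6a1 was 124.2 RPKM against 0.0400 for the heart and muscle form Cox6a2. Cox7a2 and Cox7a2l, the latter a factor of supercomplex assembly, were 61.4 and 66.6 RPKM against 0.362 for the muscle form Cox7a1. Cox8a at 140.2 RPKM stood against Cox8b, which had 1 read in 5 libraries, and Cox8c, which had 1 read in the 5 OGD-R libraries. Ndufa4, which is now counted in complex IV, was 30.5 RPKM against 0.0497 for Ndufa4l2. The 3 genes for subunit c of ATP synthase, which encode the same mature protein, were all present, with Atp5g3 at 52.0 RPKM, Atp5g2 at 18.4 and Atp5g1 at 8.18. Only 1 pair broke this pattern of a second isoform at the limit of detection: Cox6b1 at 132.7 RPKM had beside it Cox6b2, the form best known from testis, at 3.26 RPKM and 42 to 49 reads per Cort+/+ NX/NG library. No row was matched to Cox7b2, and Cox7b was 48.2 RPKM.

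Another 10 symbols were matched by name although they are hardly expressed or are copies. Cox4i2, Cox6a2, Cox6c2, Cox7a1, Cox8b, Cox8c, Ndufa11b, Ndufa4l2, Ndufb4c and Ndufs6b had means below 1 RPKM. Of these, Cox6c2, Ndufa11b, Ndufb4c and Ndufs6b are annotated as processed pseudogenes, and 100% of the 40-base words of Ndufb4c occur in Ndufb4 and other genes.

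Transcription factors long tied to nuclear respiratory genes are NRF1, the ETS factor GABP (also named NRF2) and YY1. Promoters of 300 bases (250 before and 50 after the start site, RefSeq, GRCm38.p6) were matched for 76 of the 97 nuclear members and searched on both strands. The palindromic NRF1 sequence, GCGCA followed by its reverse complement, was in 7 of them (9.21%) and in 0.977% of all 27025 promoters. The ETS sequence CCGGAAGT was in 5 (6.58%, against 4% of all) and the YY1 sequence AAGATGGC in 10 (13.2%, against 2.88%). At least 1 of the 3 was in 22 of 76 (28.9%, against 7.57%), and the same held for 34.8% of 69 promoters of mitochondrial ribosomal protein genes and 27.6% of 58 of cytosolic ribosomal protein genes. The E-box CACGTG was in 6 (7.89%, against 7.24%), and the core ACGTG of the hypoxia response element, which also counts every CACGTG, in 19 (25%, against 19.7%). A match describes letters in this window and not a bound factor.

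NRF1 matches were in Ndufaf5, Ndufaf4, Atp5k, Cox6a1, Uqcrc1, Atp5g2 and Ndufa11. ETS matches were in Ndufs3, Uqcrh, Uqcr11, Atp5h and Cox8a, and YY1 matches in Ndufc1, Atp5pb, Atp5j2, Ndufa9, Ndufa3, Ndufs7, Ndufaf8, Ndufs6, Ndufs4 and Ndufb8. Promoters are shown for 5 genes, with the match in capitals. They are Cox6b2, whose level was lower in Cort-/- as described below, its isoform Cox6b1, and 1 gene for each of the 3 sequences. Neither Cox6b promoter held any of the 3.
Cox6b2, chr7:4753045-4753344 (-): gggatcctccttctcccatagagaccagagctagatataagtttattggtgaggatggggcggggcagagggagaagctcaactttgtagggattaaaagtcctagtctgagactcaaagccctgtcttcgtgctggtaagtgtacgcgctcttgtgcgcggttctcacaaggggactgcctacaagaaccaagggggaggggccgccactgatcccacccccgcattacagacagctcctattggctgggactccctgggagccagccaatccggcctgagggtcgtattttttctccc
Cox6b1, chr7:30626065-30626364 (-): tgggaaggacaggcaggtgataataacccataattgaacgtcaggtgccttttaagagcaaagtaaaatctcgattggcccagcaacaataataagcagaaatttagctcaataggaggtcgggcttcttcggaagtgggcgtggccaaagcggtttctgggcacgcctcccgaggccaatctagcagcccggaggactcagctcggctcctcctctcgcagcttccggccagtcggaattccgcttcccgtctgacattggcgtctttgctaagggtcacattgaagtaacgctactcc
Cox6a1 (NRF1), chr5:115348909-115349208 (-): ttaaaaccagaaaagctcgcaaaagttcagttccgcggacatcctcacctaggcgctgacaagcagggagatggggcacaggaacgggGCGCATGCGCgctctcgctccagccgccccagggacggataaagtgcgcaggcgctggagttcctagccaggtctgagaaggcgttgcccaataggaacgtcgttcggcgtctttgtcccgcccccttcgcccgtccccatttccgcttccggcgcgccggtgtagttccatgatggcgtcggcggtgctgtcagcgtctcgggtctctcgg
Cox8a (ETS, reverse strand, at 2 places), chr19:7217567-7217866 (-): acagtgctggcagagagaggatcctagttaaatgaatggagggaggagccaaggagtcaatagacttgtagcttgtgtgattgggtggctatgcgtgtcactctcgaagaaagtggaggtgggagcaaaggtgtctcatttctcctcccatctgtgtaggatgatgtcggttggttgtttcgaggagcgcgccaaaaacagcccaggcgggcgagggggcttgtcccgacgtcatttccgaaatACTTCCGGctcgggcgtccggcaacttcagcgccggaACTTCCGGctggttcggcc
Ndufa9 (YY1), chr6:126849095-126849394 (-): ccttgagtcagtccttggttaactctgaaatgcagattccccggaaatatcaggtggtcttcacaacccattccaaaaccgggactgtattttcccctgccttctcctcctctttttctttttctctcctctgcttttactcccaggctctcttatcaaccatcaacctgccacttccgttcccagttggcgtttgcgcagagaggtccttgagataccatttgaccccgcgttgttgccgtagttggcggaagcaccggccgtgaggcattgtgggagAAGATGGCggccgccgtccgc

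The balance of mitochondrial to nuclear transcripts was then compared. Of the reads other than ribosomal RNA, the 13 mt- mRNAs took 1.63%, 1.58% and 1.68% in Cort+/+ NX/NG, 1.60% and 1.79% in Cort-/- NX/NG, 1.17%, 1.79% and 2.05% in Cort+/+ OGD-R and 1.61% and 1.27% in Cort-/- OGD-R. The nuclear members took 0.605%, 0.607% and 0.591%, 0.575% and 0.601%, 0.609%, 0.676% and 0.614%, and 0.537% and 0.676% in the same order. Counting error was small beside the spread of libraries, the widest 95% Wilson interval reaching 0.0083 percentage points to either side. The 2 lowest mt- shares were those of the rRNA-poor libraries, whose nuclear shares were not low. The mt- shares, and the mt- sums below, include mt-Co1 and the other genes with shared words, so they are uncertain as well. On the length-scaled sums, the mt- members had 3.57 to 4.59 times the RPKM of the nuclear members in 8 libraries, and 2.63 and 2.50 times in the rRNA-poor libraries of Cort+/+ and Cort-/-. Those 2 libraries were also low in mitochondrial ribosomal RNA, at 0.0286% and 0.0318% of reads against 0.232% to 0.471% in the rest. The part of this in the mt- mRNA levels was not tested.

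For each library the median log2(RPKM + 0.1) of the 13 mt- mRNAs, which fell on mt-Nd4 throughout, was set against that of the 87 nuclear members of at least 1 RPKM. This difference does not depend on how libraries were scaled, but it rests on mt-Nd4, of whose 40-base words 62.5% are shared. It was 4.71 ± 0.0798 in Cort+/+ NX/NG (SD, n = 3), 4.78 ± 0.158 in Cort-/- NX/NG (n = 2), 4.58 ± 0.270 in Cort+/+ OGD-R (n = 3) and 4.52 ± 0.536 in Cort-/- OGD-R (n = 2). Between genotypes it was higher by 0.0731 in Cort-/- under NX/NG (two-sided exact permutation test, p = 0.4, with 0.2 the smallest p that these groups allow), and by 0.264 where the 7 abundant mt- mRNAs replaced the 13 (exact permutation p = 0.2). Under OGD-R Cort-/- minus Cort+/+ was -0.0574 (exact permutation p = 1, smallest 0.2), and 0.167 without the rRNA-poor libraries. OGD-R minus NX/NG was -0.127 in Cort+/+ (exact permutation p = 0.8, smallest 0.1) and -0.258 in Cort-/- (exact permutation p = 1, smallest 0.333), and without the rRNA-poor libraries 0.0270 and 0.121. Both environment differences thus changed sign with 1 library. For the 7 abundant mt- mRNAs the genotypes did not overlap under NX/NG, at 5.43 and 5.53 in Cort-/- against 5.28, 5.001 and 5.38 in Cort+/+, but with these numbers of libraries no such test can reach 0.05. The nuclear share alone was higher in all 3 Cort+/+ OGD-R libraries than in all 3 Cort+/+ NX/NG libraries, by 0.0316 percentage points (exact permutation p = 0.1, the smallest possible).

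**Figure D2:**
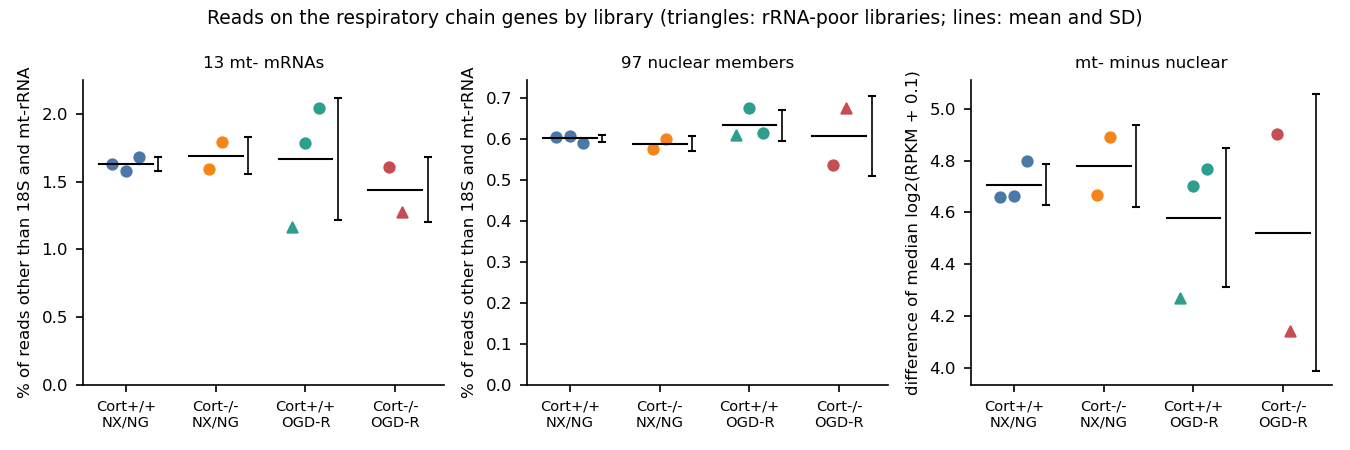
Each point is a library, triangles are the 2 rRNA-poor libraries, and lines and bars give the group mean and SD (n = 3 for Cort+/+, n = 2 for Cort-/-). The mt- share of non-ribosomal reads (left, %) is lowest in the triangles, at 1.17% and 1.27%, the nuclear share (middle, %) lies between 0.537% and 0.676%, and the difference of medians (right, log2 scale, axis not from 0) is 4.27 and 4.14 in the triangles against 4.66 to 4.90 in the others.

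Cort-/- BECs were compared with Cort+/+ BECs under NX/NG to ask whether loss of cortistatin altered the chain in resting cells. Cox6b2 stood far lower in Cort-/-, at 0.721 ± 0.117 RPKM (SD, n = 2) against 3.26 ± 0.362 (n = 3). The other nuclear members of at least 1 RPKM differed by at most 0.30 on the log2 scale. Cox6b2 was 0.804 and 0.639 RPKM in Cort-/- (11 and 9 reads) and 3.61, 2.88 and 3.29 in Cort+/+ (49, 42 and 42 reads). Both Cort-/- libraries lay far below the 3 Cort+/+ libraries. The log2FC was -2.03 (SE 0.168, FDR = 0.0803), short of the FDR of 0.05. Of the alternatives, only 2 other fits called it. One was limma-voom on the recovered reads of the same libraries (log2FC -2.12, FDR = 0.0352), and the other a fit of all 4 groups, which adds the 5 OGD-R libraries and tests only genes that have a row in both tables (log2FC -2.03, FDR = 0.0225). Over the 8 alternatives run for it singly it stayed between -2.18 and -1.31. The FDR of Cox6b2 rose to 0.350 without Cort+/+ NX/NG replicate 1. Cox6b1, the main isoform, was 120.3 and 139.0 RPKM in Cort-/- and 130.1, 129.2 and 138.9 in Cort+/+, with overlapping groups. Cox6b2 lies at chr7:4751792-4753094 on the reverse strand, shares no 40-base word with another gene and overlaps no exon of one.

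Of the markers of other cell types, the collagen genes Col1a1 and Col1a2 and the pericyte proteoglycan gene Cspg4 were, like Cox6b2, lowest in Cort-/- NX/NG, and other markers of the same lists were not. The fibroblast markers Col1a1, Col1a2, Pdgfra, Dcn and Lum, of which Col1a1 and Col1a2 made up nearly all of the sum, totalled 62.8 to 93.6 RPKM in Cort-/- NX/NG, 157 to 224 in Cort+/+ NX/NG, 169 to 279 in Cort+/+ OGD-R and 161 to 206 in Cort-/- OGD-R. The pericyte markers Cspg4, Kcnj8 and Vtn totalled 0.958 to 1.51, 3.83 to 4.41, 4.95 to 5.59 and 3.78 to 4.83 RPKM in that order, with Kcnj8 at 0 or 1 read per library and Cspg4 making up most of the sum. Pdgfra was 0.485 and 0.706 RPKM in Cort-/- NX/NG against 0.366, 0.319 and 0.320 in Cort+/+ NX/NG, the opposite order. Dcn (0.888 and 0.539 against 1.05, 0.978 and 0.876 RPKM) and Vtn (0.279 and 0.116 against 0.241, 0.2999 and 0.128) overlapped between the genotypes, Vtn was at 0.0840 and 0.108 RPKM in Cort-/- OGD-R, and Lum did not pass 0.149 RPKM in any library. In Cort-/- against Cort+/+ under NX/NG the log2FC was -1.35 for Col1a1 (SE 0.236) and -1.91 for Cspg4 (SE 0.287), and neither passed the FDR. The part of such cells in the level of Cox6b2 was not tested.

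**Figure D3:**
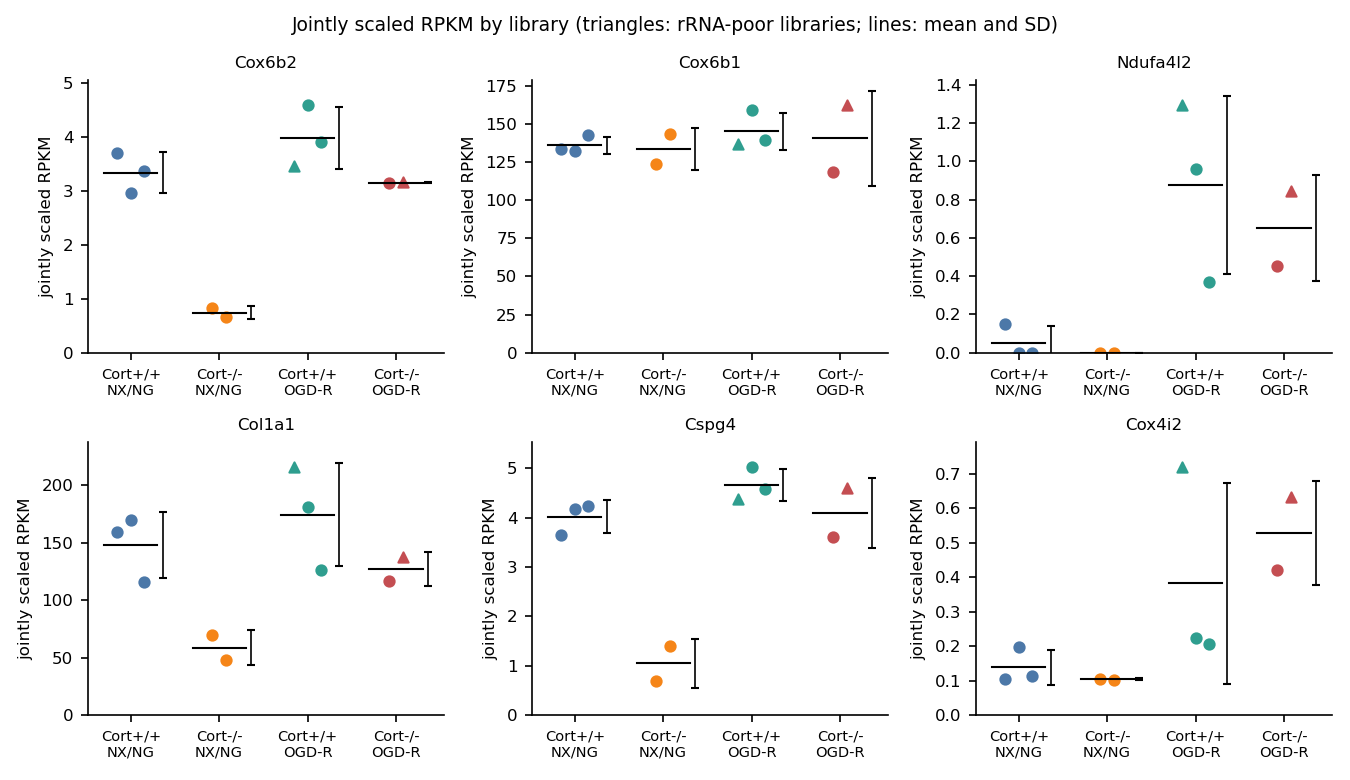
Jointly scaled RPKM of Cox6b2, Cox6b1, Ndufa4l2 and Cox4i2, with the fibroblast gene Col1a1 and the pericyte gene Cspg4; points are libraries, triangles the rRNA-poor ones, lines and bars the group mean and SD (n = 3 for Cort+/+, n = 2 for Cort-/-). Cox6b2, Col1a1 and Cspg4 have their lowest values in the 2 Cort-/- NX/NG libraries (Cox6b2 0.827 and 0.658), whereas Ndufa4l2 and Cox4i2 have their lowest values under NX/NG in both genotypes.

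No member was called under NX/NG, nor was any of the 29965 genes tested (0% at an FDR of 0.05, and 124 genes with limma-voom). At an unadjusted p under 0.05, which 8.39% of all genes met, there were 9 of 96 nuclear members and 0 of 13 mt- members. Of these, 8 were lower in Cort-/- (8 of 87 with at least 1 RPKM, where 7.83% of genes of that level and 4.82% of all genes were lower), and 1 was higher (background 3.56%), Ndufs6b, which rested on 1 read in each Cort-/- library. Besides Cox6b2 the lower ones were Ndufb10, Sdhc, Ndufa11, Ndufa7, Ndufc1, Ndufa13 and Atp5k, mostly accessory subunits of complex I. Ndufb10 was 26.0 and 24.4 RPKM in Cort-/- and 29.9, 29.5 and 30.1 in Cort+/+ (log2FC -0.24, SE 0.0491, FDR = 0.303). Sdhc, a membrane anchor of complex II, was 17.7 and 17.0 against 22.0, 20.1 and 21.05 RPKM (log2FC -0.28, SE 0.0583, FDR = 0.317). Ndufa11 was 27.8 and 28.8 against 32.7, 32.9 and 31.8 RPKM (log2FC -0.20, SE 0.0450, FDR = 0.357). In all of these the genotypes did not overlap, as 16.6% of genes of at least 1 RPKM did not in this direction. Of the 87 nuclear members of at least 1 RPKM, 12 did not overlap and were lower, and 4 were higher (background 16.4%), so neither share was above that of other genes. The count at an unadjusted p under 0.05 moved without Cort-/- NX/NG replicate 2, which leaves 1 Cort-/- library. The log2FC was then -0.20 for Ndufb10, -0.25 for Sdhc and -0.22 for Ndufa11.

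Of the 87 nuclear members of at least 1 RPKM 33 had higher values in Cort-/-. Ndufa9, a complex I subunit near the ubiquinone site, was 24.2 and 26.1 RPKM against 20.96, 21.5 and 23.8 (log2FC 0.19, SE 0.0755, FDR = 0.610). mt-Nd6 gave a log2FC of 0.29 (SE 0.172, FDR = 0.681), the groups being separated by 1050 against 1049 RPKM. Sdha (log2FC 0.080, SE 0.0442) and Atp5g2 (log2FC 0.088, SE 0.0678) were next. The median log2FC was 0.056 over the 13 mt- members, -0.025 over the nuclear members and -0.014 over all genes, and under scaling by library total the nuclear median was 0.0023. By complex, the nuclear medians were -0.044 for complex I, 0.059 for II, 0.0067 for III, -0.023 for IV and -0.026 for V. Of 87 nuclear members 54 were lower, where 47.8% of genes of that level were.

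In lists of related genes none passed the FDR in the limma fit of RPKM. At an unadjusted p under 0.05, 0 of 33 assembly factors outside the rule were higher in Cort-/- and 3 lower, led by Uqcc2 of complex III assembly (log2FC -0.30, FDR = 0.306) and Cox20 (-0.16, FDR = 0.505). Among 17 electron carriers 1 was lower, Etfb of the electron transfer flavoprotein (-0.34, FDR = 0.391), and Cyc1, cytochrome c1, was at -0.12 (FDR = 0.681). Of 34 genes of mitochondrial transcription and RNA handling 1 was lower, Mterf4 (-0.73, FDR = 0.398), and the polymerase gene Polg stood at 0.19 (FDR = 0.618). Of 78 mitochondrial ribosomal protein genes 2 were higher and 3 lower, such as Mrps27 (0.25, FDR = 0.444) and Mrpl10 (-0.22, FDR = 0.431). Of 17 genes of the tricarboxylic acid cycle and pyruvate dehydrogenase 1 was lower, Pdha1, the E1 alpha subunit (-0.39, FDR = 0.327), and Idh3a was at 0.096 (FDR = 0.681). Of 11 hypoxia-linked genes 2 were lower, Ldha, lactate dehydrogenase A (-0.35, FDR = 0.253), and Vegfa (-0.74, FDR = 0.304). A list of 99 cytosolic ribosomal protein symbols, which also takes 10 S6 kinase genes named Rps6k and of which 98 were tested, had 1 higher and 8 lower and a median of -0.092, led by Rpl22 (-0.19, FDR = 0.408) and Rpl27a (-0.16, FDR = 0.495). Of its 92 symbols of at least 1 RPKM 81 were lower (background 47.8%) and 42 were lower without overlap (background 16.6%).

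Under OGD-R the genotypes were compared to ask whether the chain differed after injury. No nuclear member met even an unadjusted p under 0.05, which 3.42% of the 29775 genes did, and none of those genes was called (0%, and 5 genes with limma-voom). mt-Co3 was the only mt- member to meet it, with 3.05 and 2.52 RPKM in Cort-/- and 1.49, 2.18 and 1.81 in Cort+/+ (log2FC 0.59, SE 0.217, FDR = 0.978). Its groups did not overlap, and the difference rested on 28 and 27 against 16, 19 and 17 reads of a gene whose nuclear copy has the same sequence. Cox6b2 was 3.23 and 3.24 RPKM in Cort-/- and 3.55, 4.71 and 4.002 in Cort+/+ (log2FC -0.32, SE 0.155, FDR = 0.978), again without overlap but far closer than under NX/NG. The 7 abundant mt- mRNAs were all lower in Cort-/-, by 0.13 (mt-Co1) to 0.42 (mt-Nd6) on the log2 scale, with SEs of 0.323 to 0.850 that exceeded every one of these differences.

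None of the following passed the FDR, which was 0.978 for each of them. Ndufa8 stood at a log2FC of 0.12 (SE 0.142), Ndufb7 at 0.091 (SE 0.144) and Sdha at 0.056 (SE 0.0884). Atp5j was at -0.20 (SE 0.127), Ndufb9 at -0.23 (SE 0.148) and Atp5mpl at -0.23 (SE 0.153). The spread within Cort-/- was wide, as for Ndufb10 at 23.4 and 34.3 RPKM and Ndufa13 at 29.4 and 51.4, with the rRNA-poor replicate 3 the higher of each pair. The median log2FC was -0.061 over nuclear members, -0.18 over mt- members and -0.0089 over all genes. Of 87 nuclear members of at least 1 RPKM 73 were lower (background 52.4%), but without overlap only Sdha was higher (background 7.87%) and only Cox6b2 lower (background 8.23%).

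The genotype comparison under OGD-R depended on the rRNA-poor libraries. Without them 1 Cort-/- library was set against 2 Cort+/+ libraries, the single one being assumed to vary like the others. Of 95 nuclear members 21 were then lower at an unadjusted p under 0.05 and 0 higher, where 4.27% and 6.82% of all genes were, 85 of 87 members of at least 1 RPKM were lower (background 51%), and the nuclear median was -0.29. The mt- median was -0.22, with 0 of 13 at that p. Ndufb9 went from -0.23 to -0.48 (SE 0.0617, FDR = 0.308) and Atp5j from -0.20 to -0.42 (SE 0.0699, FDR = 0.387). The single Cort-/- library, replicate 1, also had high epithelial markers, with Krt8, Krt18, Cdh1 and Epcam summing to 37.0 RPKM against 8.81 in Cort-/- replicate 3 and 1.43 to 7.45 in Cort+/+ OGD-R. Replicate 2 of Cort+/+ NX/NG reached 49.6 RPKM. The part of such cells in the values of this and the later comparisons without the rRNA-poor libraries was not tested. The same was seen in short mRNAs outside the chain, with 22 of 97 cytosolic ribosomal protein symbols lower (median -0.42) and 6 of 78 mitochondrial ribosomal protein genes (median -0.18). No gene passed the FDR without those libraries either (0%). Leaving out Cort+/+ OGD-R replicate 1 alone gave 5 nuclear members at that p in place of 0, where 1267 of 28862 genes met it. The count also moved without either Cort-/- OGD-R replicate, where 1 library of that group is left.

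Outside the members under OGD-R no listed gene passed the FDR. Vegfa was at a log2FC of -0.49 (FDR = 0.978) and Slc2a1, the glucose transporter GLUT1 of the barrier, at 0.22 (SE 0.102). Mterf4 was at -0.39 (SE 0.135) with Ssbp1 at -0.23 (SE 0.157), and Mrps18b at -0.26 (SE 0.0901) with Mrpl24 at -0.19 (SE 0.101). The assembly factors Sdhaf1 (-0.36, SE 0.148) and Bcs1l (-0.29, SE 0.122), the ubiquinone genes Coq5 (0.20, SE 0.107) and Coq9 (0.15, SE 0.119), and Sucla2 (-0.18, SE 0.0853) and Pdha1 (-0.20, SE 0.150) of the cycle did not meet p under 0.05. Rpl39l (0.95, SE 0.400) and Rpl22 (-0.24, SE 0.140) led the cytosolic list, of whose 99 symbols 0 met it.

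OGD-R was compared with NX/NG in Cort+/+ BECs on reads of both tables scaled together, since the authors normalised the tables separately. Most nuclear members had slightly higher values after OGD-R, and of the 13 mt- members 0 were higher and 1 lower at an unadjusted p under 0.05. The nuclear median log2FC was 0.10, 75 of 87 members of at least 1 RPKM were higher (background 51.6%) and 15 of them were higher without overlap (background 7.67%) and 0 lower (background 5.18%). At an unadjusted p under 0.05 14 of 95 were higher and 0 lower, where 3.01% of all genes were higher and 2.48% lower, and 12 of the 14 had at least 1 RPKM (12 of 87, background 4.27%). By complex the 14 were 9 of 48 in complex I, 1 of 4 in II, 0 of 8 in III, 2 of 18 in IV and 2 of 17 in V. No member was among the 9 of 27075 genes called (0.0332%).

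Atp5g1 led the members of at least 1 RPKM, with 9.34, 9.83 and 9.65 jointly scaled RPKM after OGD-R against 8.30, 8.24 and 8.60 (log2FC 0.19, SE 0.0595, FDR = 0.881). Ndufa6 was 18.7, 19.98 and 20.1 against 17.0, 17.8 and 16.7 (log2FC 0.19, SE 0.0592, FDR = 0.881). The iron-sulfur subunit Ndufs8 was 24.6, 27.4 and 29.2 against 23.8, 21.9 and 23.4 (log2FC 0.23, SE 0.0791, FDR = 0.881). Ndufa7 was 24.4, 27.2 and 24.7 against 23.4, 21.9 and 21.5 (log2FC 0.19, SE 0.0678, FDR = 0.881). In each of the 4 every OGD-R library was above every NX/NG library, by small steps. The remaining ones were Atp5j2, Cox5b, Ndufa2, Ndufa9, Ndufaf3, Ndufb8, Ndufb9 and Sdhb, with log2FC between 0.13 and 0.25, and the low genes Ndufa4l2 and Ndufs6b. Toward lower values stood mt-Co3 (1.45, 2.13 and 1.77 against 2.88, 2.09 and 3.97, log2FC -0.68, SE 0.259, FDR = 0.881), mt-Nd3 (-0.37, SE 0.379), mt-Nd4l (-0.70, SE 0.821) and the Rieske protein gene Uqcrfs1 (-0.069, SE 0.0960). The mt- median was -0.089 over all 13 and 0.040 over the 7 abundant ones.

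The same direction was seen in ribosomal protein genes. Of 98 cytosolic ribosomal symbols 14 were higher at an unadjusted p under 0.05 and 0 lower (median 0.14), led by Rpl37rt (0.37, FDR = 0.671) and Rpl31 (0.29, FDR = 0.751). Of 78 mitochondrial ribosomal protein genes 9 were higher and 0 lower (median 0.12), led by Mrpl40 (0.34, FDR = 0.717) and Mrpl18 (0.23, FDR = 0.881). Outside these, 1 of 33 assembly factors was higher, Uqcc3 (0.29, FDR = 0.881), with Cox11 at 0.19 (FDR = 0.900). None of 17 electron carriers, 34 genes of mitochondrial transcription and 17 genes of the cycle met that p, among them Cycs, cytochrome c, at 0.14 (SE 0.0631), Coq5 at 0.19 (SE 0.101), Ssbp1 at 0.28 (SE 0.128), Mtpap at -0.15 (SE 0.0945) and Idh2 at 0.14 (SE 0.119). Of the hypoxia-linked genes Vegfa was at 0.38 (FDR = 0.881) and Egln3 at -0.17 (SE 0.0900). Without the rRNA-poor Cort+/+ OGD-R replicate 1, 30 of 95 nuclear members were higher (background 3.71%) and 0 lower (background 3.06%) with a median of 0.17, the mt- median was 0.25, and 45 of 98 cytosolic symbols were higher. Leaving out other single libraries gave 4 to 8 nuclear members, where 1114 of 26887 to 1590 of 26921 genes met that p. With limma-voom there were 4, where 1507 of 27075 genes met it.

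**Figure D4:**
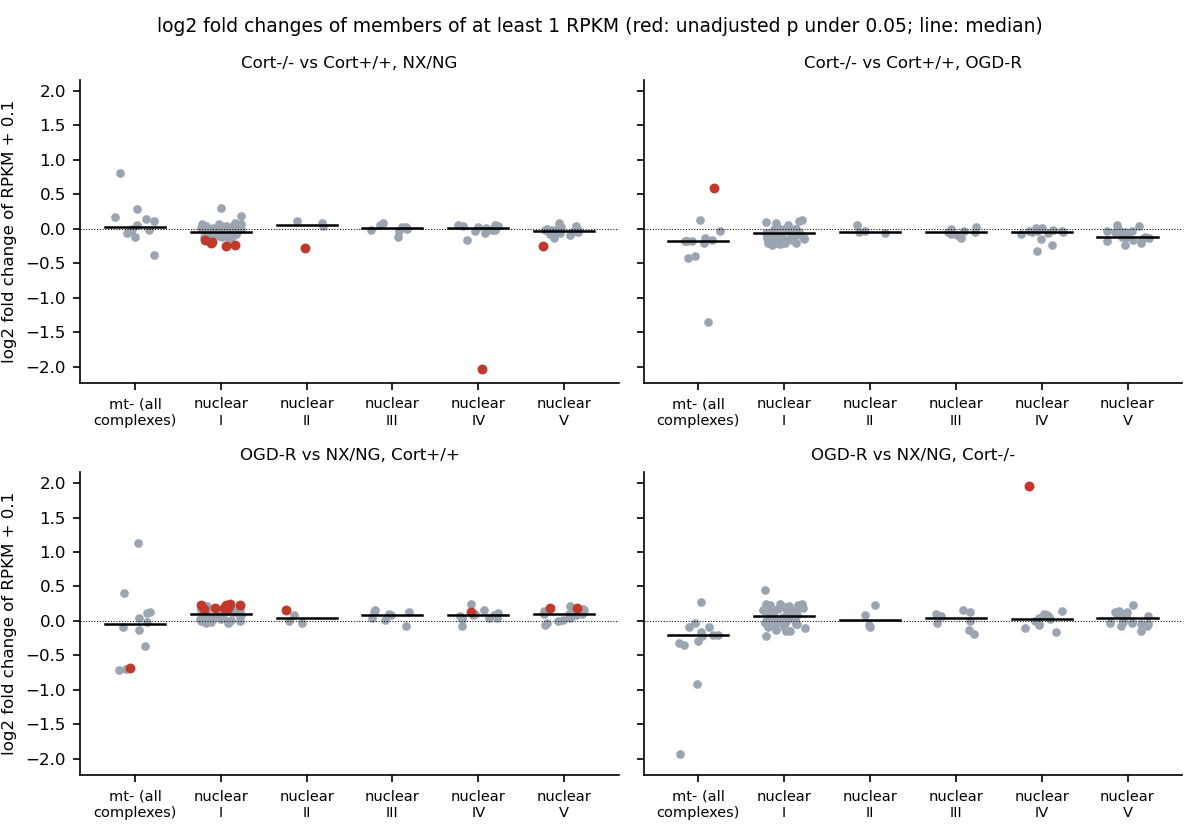
Each point is the log2 fold change of RPKM + 0.1 of 1 member with a mean of at least 1 RPKM, in columns for the mt- members and the nuclear members of complexes I to V, with a line at the median; red marks an unadjusted p under 0.05 and no point passed an FDR of 0.05. Cox6b2 stands apart at -2.03 under NX/NG and at 1.96 in Cort-/- after OGD-R, and nuclear medians in Cort+/+ after OGD-R lie above 0 in each complex.

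In Cort-/- BECs the same comparison gave no called gene among 26523 (0%, and 0 with limma-voom), and 4.08% met an unadjusted p under 0.05, 2.21% higher and 1.87% lower. Of 95 nuclear members 3 were higher at that p and 0 lower. Cox6b2 was higher after OGD-R, with 3.15 and 3.16 jointly scaled RPKM against 0.827 and 0.658 under NX/NG (log2FC 1.96, SE 0.208, FDR = 0.444). The Cort-/- OGD-R values were at the level of Cort+/+ NX/NG (3.69, 2.95 and 3.37) and just below Cort+/+ OGD-R (3.46, 4.59 and 3.90). Col1a1 (log2FC 1.13, SE 0.224) and Cspg4 (1.93, SE 0.374) moved with it, as described above, while Pdgfra and Vtn of the same lists did not. The other nuclear members at that p were Ndufa4l2 and Cox4i2. Ndufa7 at 0.44 (SE 0.166), Ndufa6 at 0.25 (SE 0.131) and Sdhc at 0.23 (SE 0.108) followed, and toward lower values Uqcrfs1 at -0.19 (SE 0.0782), mt-Nd4l at -0.91 (SE 0.538), Atp5pb at -0.15 (SE 0.0907) and Ndufs4 at -0.14 (SE 0.0962).

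The nuclear median in Cort-/- was 0.055, with 50 of 87 members higher (background 47.9%), and the mt- median was -0.20, with 12 of 13 lower. Without the rRNA-poor replicate 3, which leaves 1 OGD-R library, the mt- median was -0.021 with 7 of 13 lower, and the nuclear median was -0.11 with 70 of 87 lower (background 51.5%), and 5 of 94 nuclear members were higher (background 4.55%) and 3 lower (background 3.1%) at an unadjusted p under 0.05. Among single members Ndufa7 went from 0.44 to 0.23 and mt-Nd4l from -0.91 to -1.63. The direction of the nuclear median thus turned with 1 library. The count of nuclear members at an unadjusted p under 0.05 rose without replicate 1 and without replicate 3. The share of all genes at that p rose in both fits as well. Vegfa was at 0.62 (FDR = 0.623), and Egln1, an oxygen-sensing prolyl hydroxylase, at -0.26 (SE 0.0953). In the other lists 0 genes met p under 0.05, the lowest being Mrpl22 (0.16, SE 0.0779), Mrpl10 (0.18, SE 0.0918), Dld (-0.18, SE 0.0792), Idh2 (0.35, SE 0.167), Mterf4 (0.31, SE 0.152), Fastk (0.16, SE 0.0998), Coq5 (0.24, SE 0.126), Coq8b (0.22, SE 0.148), Tmem70 (-0.19, SE 0.127) and Sdhaf2 (0.14, SE 0.106).

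**Figure D5:**
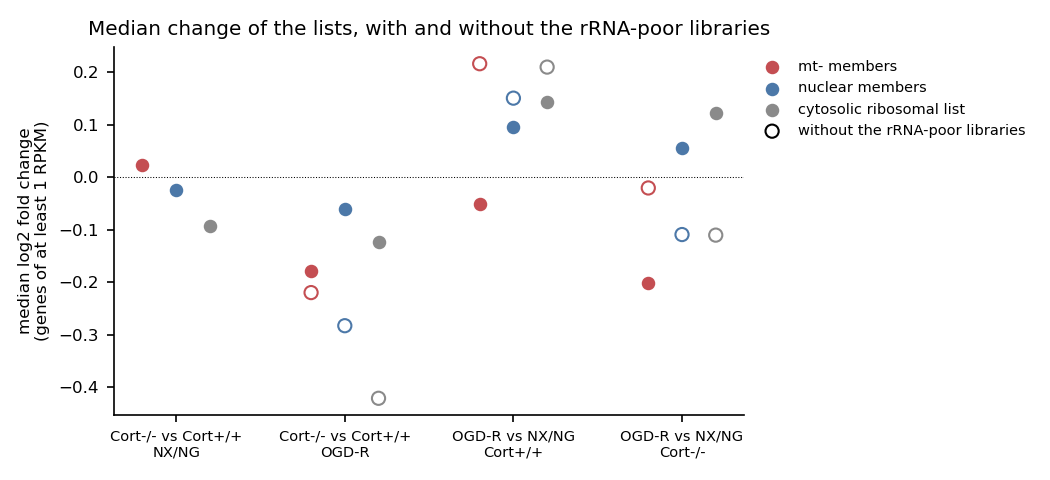
Median log2 fold change in each comparison over members and lists of genes of at least 1 RPKM, filled with all libraries and open without the 2 rRNA-poor libraries. The nuclear median under OGD-R between genotypes goes from about -0.061 to -0.28, and that of Cort-/- after OGD-R from above 0 to -0.11, with the ribosomal lists going the same way.

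Isoforms linked to low oxygen were scarce but had more reads after OGD-R. Ndufa4l2, which dampens respiration when oxygen is low, had 2, 0 and 0 reads in Cort+/+ NX/NG and 20, 12 and 5 in Cort+/+ OGD-R, a ratio of 17.7 (95% counting interval 4.56 to 151.3). In Cort-/- it had 0 and 0 reads under NX/NG, where 3 reads would be 0.222 and 0.216 RPKM, and 6 and 13 after OGD-R, at least 2.89-fold higher against 3 reads in each library. Its log2FC in Cort+/+ was 2.70 (SE 0.565, FDR = 0.677), and between 0.81 and 3.67 in its alternatives. Cox4i2 had 1, 2 and 1 reads in Cort+/+ NX/NG and 8, 2 and 2 after OGD-R, a ratio of 2.86 whose interval includes 1 (0.868 to 12.2), and 1 and 1 against 4 and 7 in Cort-/-, a ratio of 5.14 (1.12 to 47.8). These intervals cover counting error only. Both genes had their most reads of a genotype in its rRNA-poor library. The log2FC of Cox4i2 in Cort+/+ was 0.88 with all libraries and 0.42 without that one (SE 0.320), and in Cort-/- it was 1.35 (SE 0.157) without it, on 4 reads. Ndufa4l2 stood at 2.38 in Cort+/+ and 2.47 in Cort-/- without them. After OGD-R they reached at most 1.33 RPKM, against 19.5 to 33.5 for Ndufa4 and 109.9 to 137.3 for Cox4i1.

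The last comparison asked whether the response to OGD-R differed between genotypes. Of the 108 members tested 2 met an unadjusted p under 0.05 for the interaction, which 2.85% of 27321 genes met (1.69% higher in Cort-/-) and for which 3 genes (0.011%) were called. Cox6b2 had an interaction of 1.71 on the log2 scale (SE 0.228, FDR = 0.267), between 1.06 and 1.86 in all alternatives run for it. mt-Co3 had 0.96 (SE 0.405, FDR = 0.9998). Sdhc (0.22, SE 0.123) and Ndufa7 (0.25, SE 0.164) came next, and toward lower values Ndufs4 (-0.30, SE 0.172), Ndufa9 (-0.29, SE 0.167), Uqcrc2 (-0.18, SE 0.134) and Atp5j (-0.18, SE 0.139). The mt- median was -0.21 and the nuclear median -0.044. Among the fibroblast and pericyte markers, Col1a1, Col1a2 and Cspg4 were chosen after their values were seen, being lowest in Cort-/- NX/NG like Cox6b2. Their interactions were 0.91 (SE 0.372), 1.44 (SE 0.402) and 1.72 (SE 0.342). Pdgfra, Dcn and Vtn of the same lists did not share that NX/NG order, as described above. Interactions of Pdgfra, Dcn, Lum, Kcnj8 and Vtn are not given, so the values printed do not describe either list. Without the rRNA-poor libraries 1 of 95 nuclear members was higher and 20 lower (background lower 2.47%), with a median of -0.27, and 46 of 98 cytosolic ribosomal symbols were lower, with a median of -0.31. Ndufa7 then had an interaction of 0.0105, Sdhc of 0.072, Ndufs4 of -0.46, Ndufa9 of -0.53 and Atp5j of -0.39. Leaving out Cort+/+ OGD-R replicate 1 alone gave 7 nuclear members at that p in place of 1, where 1070 of 27321 genes met it. The count also moved without either Cort-/- OGD-R replicate, where 1 library of that group is left. It thus rested on which OGD-R libraries were used.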

How the data were processed

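RNA-seq was deposited as 2 tables, 1 per environment, each with RPKM values, a gene length and read-derived categories. The authors made the RPKM values with the reanalyzerGSE pipeline, keeping low genes, and scaled them within each table. The submitters' notes name edgeR. The aligner, the counter and the build are not given in the sources used here, and the labels and the methods differ on kit and read length. The tables also hold the authors' log2 fold changes, p-values and FDR, which were not used, and 10 further per-sample category columns, which were not used either.

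RPKM multiplied by length gave whole reads within 0.05 for at least 99.9958% of values per library. Genotypes were compared within a table by limma 3.58.1 (R 4.3.3) with an intensity trend on log2(RPKM + 0.1), so that fold changes of low genes are understated. The 2 environments and the interaction were compared on recovered reads of the 27321 shared genes, rescaled by the trimmed mean of M-values (jointly scaled RPKM). All p-values from these fits were adjusted over all genes tested (Benjamini-Hochberg) and called at an FDR of at most 0.05. SE is the standard error of the log2 fold change in the same fit. The mt- minus nuclear difference was tested by two-sided exact permutation (scipy 1.17.1). Scripts were tested on simulated data. Each replicate is a pool from 3 mice. Whether NX/NG and OGD-R cultures of the same number shared a pool is not known here, and the main fits treat them as unpaired. Intervals and floors of 3 reads cover counting error only.

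Members and lists were chosen with earlier results of these data known. Genes were named by rule: every mt- member, the highest and lowest nuclear member of each complex, the isoform groups, the 4 members with the lowest p in each direction of each comparison, the 2 with the lowest p of each pathway list (mean of at least 1 RPKM), Cort and 18S. Other members named in counts, and the markers beside Cox6b2, were chosen after their values were seen. Alternatives were other pseudocounts, filters, scalings, fits and libraries. A gene that the rule names is not reported here.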

Additional observations from a re-analysis of the deposited data

Results flagged for a closer look

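In 2 members the response to OGD-R differed between genotypes by the unadjusted test of the interaction, and neither passed the correction over all genes. Cox6b2 had an interaction of 1.71 on the log2 scale (SE 0.228, FDR = 0.267), with both Cort-/- OGD-R libraries (3.15 and 3.16 jointly scaled RPKM) above both Cort-/- NX/NG libraries (0.827 and 0.658) and overlapping values in Cort+/+. Its sign was the same in the 14 alternatives run for it. mt-Co3 had an interaction of 0.96 (SE 0.405, FDR = 0.9998) on 16 to 35 reads per library, and between 0.69 and 1.24 in its 14 alternatives. Of its 40-base words 99.9% also occur in another gene, and its copy Gm28437 was at 0.805 to 1.96 RPKM.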

How the results depend on the processing

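Most members followed here were picked by their p in the same libraries, and some alternatives are the same fit. A kept direction is therefore partly set by that choice. Directions of the named members were kept in 421 of 428 alternatives. The 7 that turned were Ndufb7 between genotypes under OGD-R (-0.12 without Cort-/- replicate 3, -0.14 without the rRNA-poor libraries, up to 0.30 without Cort-/- replicate 1), Ndufa8 there (-0.037 without the rRNA-poor libraries), and, in Cort+/+ after OGD-R without replicate 1, which is also the fit without the rRNA-poor libraries, mt-Nd3 (0.054, down to -0.68 without replicate 2) and mt-Nd4l (0.16, down to -1.44 without replicate 3). Genes called between genotypes under NX/NG went from 0 to 20 with a pseudocount of 1, 124 with limma-voom, 4 with all groups in 1 fit and 0 to 683 on leaving out 1 library (683 without Cort-/- replicate 2). Under OGD-R they went from 0 to 5 with limma-voom, 7 with all groups and 0 to 710 on leaving out 1 library (710 without Cort-/- replicate 1). In Cort+/+ the 9 called after OGD-R became 5 with a pseudocount of 1, 1 with limma-voom, and 0 with a minimum of 1 RPKM, a term for rRNA-poor libraries, all groups, without any 1 library or without the rRNA-poor ones. The 3 called for the interaction became 0 with a pseudocount of 1, a minimum of 1 RPKM, limma-voom, the rRNA-poor term or without the rRNA-poor libraries, and 0 to 8 on leaving out 1 library. The mt- minus nuclear difference turned between genotypes under NX/NG without Cort-/- replicate 2 (range -0.038 to 0.18). Under OGD-R it turned without mt-Nd6 (0.098), without the rRNA-poor libraries (0.17) and on leaving out 1 library (-0.44 to 0.32). Without mt-Nd6 the mt- median lay midway between mt-Nd4 and mt-Nd3, across the gap in level. That setting thus also brought in mt-Nd3 and does not show the part of mt-Nd6 alone. In Cort+/+ after OGD-R the mt- minus nuclear difference turned for structural subunits (0.0028) and the 7 abundant mt- mRNAs (0.23). There it also turned without the rRNA-poor library (0.027) and on leaving out 1 library (-0.22 to 0.027). In Cort-/- it turned without the rRNA-poor library (0.12) and on leaving out 1 library (-0.64 to 0.12). Medians moved for mt- members in Cort+/+ after OGD-R (0.25 without the rRNA-poor library, -0.28 to 0.25 on leaving out 1 library) and for nuclear members between genotypes under NX/NG (-0.079 to 0.0069) and OGD-R (-0.29 without the rRNA-poor libraries). The causes were not tested. With the replicate block, Cort+/+ OGD-R gave 0 called genes in place of 9 and the genotype comparisons 0. Same-numbered Cort+/+ libraries correlated at -0.059, -0.074 and 0.19 in their deviations from group means. Deviations within a group of 3 libraries are not independent, so these values cannot decide whether the numbers pair the samples. The rRNA-poor term could not be fitted under NX/NG. Library depth limits mt-Co2, mt-Atp6, mt-Atp8, mt-Nd4l, Cox4i2 and Ndufa4l2, and 2 replicates limit Cort-/-. The alternatives for unadjusted counts, for scaling to the library total between genotypes and for the 7 abundant mt- mRNAs were chosen after seeing the data.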

Other observations

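The ribosomal RNAs of the mitochondrion were further down in the 2 rRNA-poor libraries than its 7 abundant mRNAs were. mt-Rnr1 was 1538, 908.2 and 1996 RPKM in Cort+/+ NX/NG, 1149 and 1366 in Cort-/- NX/NG, 77.2, 1846 and 1292 in Cort+/+ OGD-R and 1077 and 90.9 in Cort-/- OGD-R. mt-Rnr2 was 1482, 834.6 and 1995 RPKM, 1088 and 1164, 116.7, 1773 and 1326, and 1067 and 127.7 in the same order. Both were lowest by far in the 2 libraries that were low in cytosolic 18S. Of the 23 mitochondrial non-coding RNAs tested, 0 met an unadjusted p under 0.05 with limma in any of the 4 pairwise comparisons. The lowest p was that of mt-Tp between genotypes under NX/NG (log2FC 0.52, FDR = 0.621).

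The 6 nuclear copies of mitochondrial genes stood at higher values in Cort-/- under NX/NG for all 4 with a mean of at least 1 RPKM. Gm10925, the copy of mt-Atp6, gave the lowest p (log2FC 0.82, SE 0.264) and did not pass the correction over all genes. It was at 1.67 and 2.67 RPKM in Cort-/- against 1.08, 1.01 and 1.41 in Cort+/+. These values rest on 14 and 23 reads against 9, 9 and 11. Gm10925 matched 678 of 678 aligned bases of mt-Atp6, so reads of this copy and of mt-Atp6 may not be told apart.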
